A study of Mus musculus with 8 samples.

Results

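The transcripts described here mark lymphocytes: T cells, B cells, plasma cells and natural killer (NK) cells. They were followed in splenic hemophagocytes and in resting splenic macrophages of the mouse. The members are 31 genes chosen by symbol, and the level of each was read from 1 probe set, the one with the highest mean over all 8 arrays. A probe set carrying the symbol alone was found for 30 of the 31, among 19938 genes on the array. These are 11 T cell genes, 8 B cell genes, 2 plasma cell genes and 9 NK and cytotoxic genes. Lck, the Src family kinase of T cell receptor signalling, had no such probe set in the annotation used and was not analysed here. The question put to the data was whether lymphocytes that had been engulfed, or that lay beside the captured cell, left a trace in hemophagocytes as compared with resting macrophages.

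Hemophagocytes came from mice given 4 intraperitoneal doses, on alternate days, of 37.5 ug of CpG1826 with 200 ug of antibody clone 1B1.3A. CpG1826 is an oligonucleotide that stimulates Toll-like receptor 9, and the antibody blocks the IL-10 receptor. Resting macrophages came from mice given 4 doses of 200 uL of PBS on the same schedule. All mice were male wild type C57Bl/6j animals aged 8 weeks. From each mouse 20 target cells were laser-captured from a spleen touch preparation and pooled, and each group has 4 arrays (hemophagocytes 2, 3, 5 and 6, and resting macrophages 3, 4, 5 and 6). The labels do not say by what features the cells were picked. Macrophages of treated mice that held no engulfed cells were not analysed here, so engulfment cannot be told apart from the treatment. A touch preparation lays spleen cells on the slide as a film, and the labels do not say whether a captured spot could take in neighbouring cells.

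Lymphocytes are the most numerous cells of the spleen. T cells recognise antigen through a receptor whose signal is carried by the CD3 chains and the zeta chain, and B cells through surface immunoglobulin whose signal is carried by Cd79a and Cd79b. Plasma cells secrete antibody. NK cells, like cytotoxic T cells, kill by releasing granzymes from granules, and carry lectin-like and immunoglobulin-like activating and inhibitory receptors. A hemophagocyte is a macrophage that holds engulfed blood cells, which can include lymphocytes as well as red cells.

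Values are log2 intensities as deposited. Olfactory and vomeronasal receptor genes are chiefly genes of sensory neurons, so the 1190 on the array were taken as a measure of array background. Their mean was lowest on hemophagocyte 3 at 5.75, lay at 5.95, 6.07 and 6.05 on hemophagocytes 2, 5 and 6, and ran from 5.99 to 6.16 on the resting arrays. Their 95th percentile was 7.42 to 7.72 on the hemophagocyte arrays and 7.69 to 7.81 on the resting arrays. Hemophagocytes 3 and 5 stood apart in another way, where 154 and 159 genes exceeded their own 8-array median by over 1 log2 unit, against 13 and 30 on hemophagocytes 2 and 6 and 7 to 16 on the resting arrays. Markers of the labelled cell type were uneven across the arrays. Of 20 macrophage markers, 2, 8, 9 and 2 exceeded the 95th percentile of the receptor genes on hemophagocytes 2, 3, 5 and 6, and 0 to 3 did so on the resting arrays. Of all genes 4.16%, 5.86%, 3.23% and 3.01% did so on the same hemophagocyte arrays, and 2.36% to 3.31% on the resting arrays. A value below that percentile does not show that a transcript was absent. Lyz2, the lysozyme of myeloid cells, stood at 5.86, 9.95, 9.96 and 6.55 on hemophagocytes 2, 3, 5 and 6, and at 8.89, 8.86, 8.71 and 7.45 on resting macrophages 3, 4, 5 and 6. Csf1r, the receptor for the macrophage growth factor CSF1, stayed between 6.06 and 6.46 on hemophagocyte arrays and between 6.33 and 6.48 on resting arrays, below that percentile on all 8. Adgre1, which encodes F4/80, exceeded its resting range of 5.67 to 5.89 on hemophagocyte 5 alone, at 7.38. Tyrobp, a signalling adaptor of myeloid and NK cells, and C1qc, a chain of complement C1q, had the smallest p of the macrophage list, with changes of 1.01 and 1.11 and a limma adjusted p of 0.747 each.

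No measured lymphocyte lineage transcript passed the threshold between hemophagocytes and resting macrophages, in either direction. With limma across all 19938 genes and Benjamini-Hochberg adjustment, 0 of 30 members were called higher and 0 lower, against 0.01% and 0% of all genes (the 2 called genes, Gng5 and S100a6, are no members). The smallest adjusted p among members was 0.747. At an unadjusted limma p under 0.05, 0 members were higher and 4 were lower, which is 13.3% of members, where 1.53% and 5.05% of all genes were. The 4 were Fcrla, Gzma, Klrd1 and Tbx21. The receptor genes that stand for background had a larger share at that level, with 210 of 1190 (17.6%) lower. Groups did not overlap in 0 members in the higher direction and in 1 in the lower direction, Fcrla, where 0.802% and 2.9% of all genes did. The median change of the 30 members, hemophagocyte minus resting macrophage, was -0.05, beside -0.04 over all genes and -0.15 over the receptor genes. Of the members 8 had a change above 0 and 22 below, and 36.1% of all genes had one above 0. The count of 4 lower members was 2 when hemophagocyte 2, hemophagocyte 3 or resting macrophage 4 was left out. The share of all genes lower at that level in those fits was 5.18%, 2.77% and 3.63%. The count was 1 without resting macrophage 5, where 3.31% of all genes were lower. It was 0 without hemophagocytes 3 and 5 together, where 2.73% of all genes were lower.

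**Figure D1:**
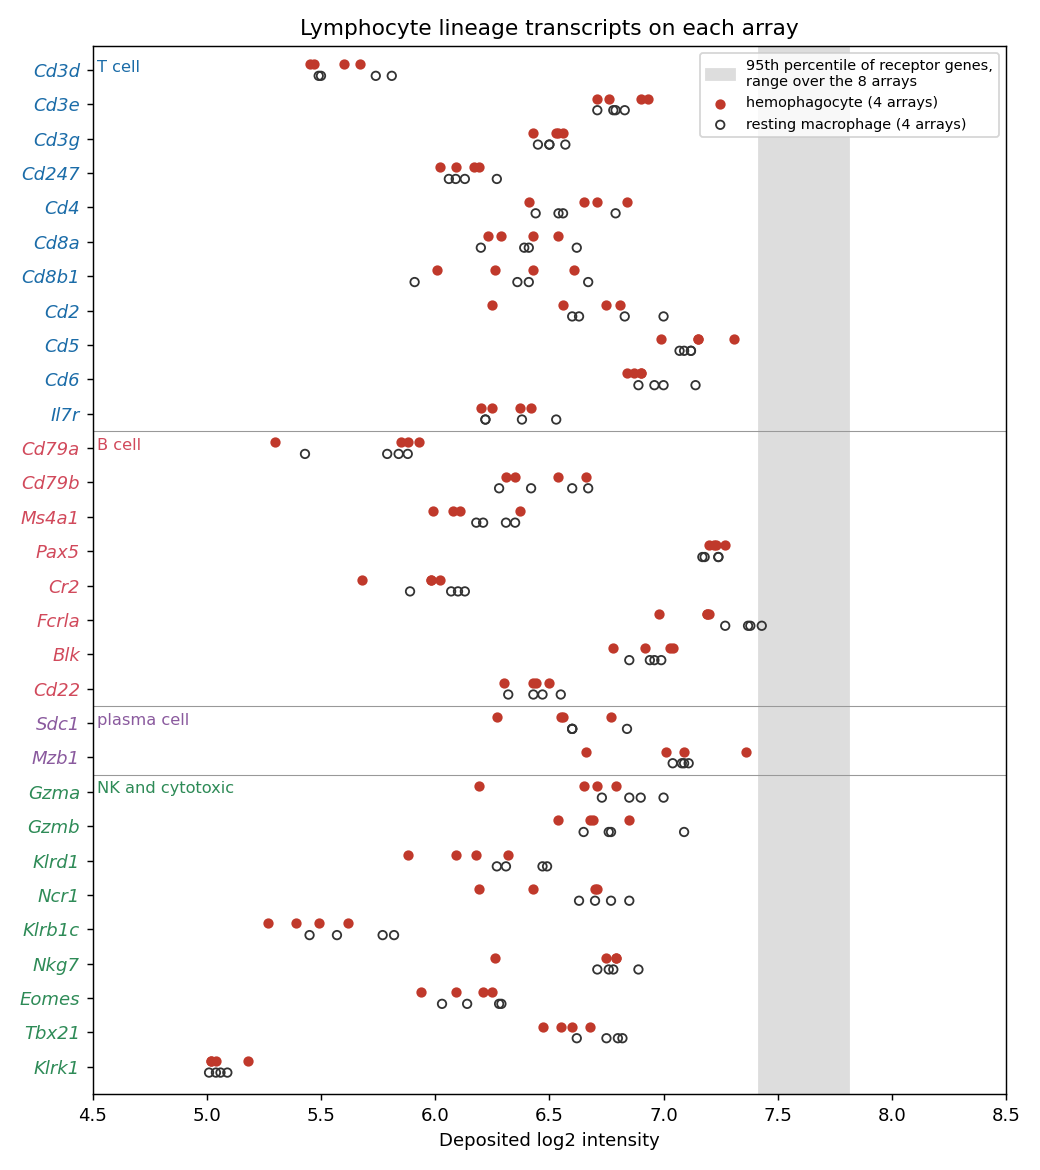
Deposited log2 intensity (x axis) of the 30 measured lymphocyte lineage transcripts, with hemophagocyte arrays as filled points above resting macrophage arrays as open points (4 each), and a grey band over the 95th percentile of the receptor genes (7.42 to 7.81 over the 8 arrays). The groups overlap in 29 members, and Fcrla is the member whose hemophagocyte arrays all lie below its resting arrays.

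The changes were bounded closely on this scale. The 95% limma interval of the change lay below 0.2 log2 units at its upper end in 23 of 30 members. The highest upper limit of any member was 0.35, for Cd8b1, which is 1.28-fold in intensity. The lower end lay above 0 in 0 members, and the upper end lay below 0 in the same 4 that had an unadjusted p under 0.05. These limits are for array intensity. Near background, intensity moves less than the transcript does, so a fold in RNA could be larger than the fold in intensity. In a pool of captured cells, fewer lymphocytes and less RNA per lymphocyte cannot be told apart.

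No T cell transcript passed, and the changes lay close to 0. The median change of the 11 measured T cell genes was -0.02, from -0.17 for Cd2 to 0.07 for Cd4, with 4 above 0 and 7 below, and 0 at an unadjusted p under 0.05. The signalling chains of the T cell receptor, encoded by Cd3d, Cd3e, Cd3g and Cd247 (the zeta chain), had changes of -0.08, 0.05, 0.01 and -0.02. Cd3e was 6.90, 6.76, 6.71 and 6.93 on hemophagocytes 2, 3, 5 and 6, and 6.79, 6.71, 6.83 and 6.78 on resting macrophages 3, 4, 5 and 6. Its 2 groups shared most of their range, with hemophagocytes 2 and 6 at the top. Cd4, the coreceptor of helper T cells, averaged 6.65 ± 0.18 in hemophagocytes and 6.58 ± 0.15 in resting macrophages (SD, n = 4 each). The coreceptor chains of cytotoxic T cells, Cd8a and Cd8b1, had changes of -0.03 and -0.01. Cd8b1 was the T cell gene with the widest spread over the 8 arrays, 0.76 log2 units, and its lowest array was resting macrophage 6 and its highest resting macrophage 3.

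The T cell genes with the smallest p were Cd6 and Cd2. Cd6, a scavenger receptor cysteine-rich protein that tunes T cell receptor signals, stood at 6.90, 6.90, 6.84 and 6.87 on hemophagocytes 2, 3, 5 and 6 and at 7.14, 6.89, 7.00 and 6.96 on resting macrophages 3, 4, 5 and 6 (probe set 10466054). Resting macrophage 4 lay among the hemophagocyte values, and the change of -0.12 (SE 0.07) had a limma adjusted p of 0.755. Cd2, the adhesion receptor for CD48, stood at 6.56, 6.25, 6.81 and 6.75 on hemophagocytes 2, 3, 5 and 6 and at 6.63, 6.60, 7.00 and 6.83 on resting macrophages 3, 4, 5 and 6 (probe set 10500677). Hemophagocyte 3 was the lowest array and resting macrophage 5 the highest, and the change of -0.17 (SE 0.13) had a limma adjusted p of 0.783. Cd5, a relative of Cd6, had a change of 0.05, and Il7r, the receptor chain for the survival cytokine IL-7, one of -0.03.

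No B cell transcript passed, and Fcrla had the lowest change of them. The 8 B cell genes had a median change of -0.03, with 3 above 0 and 5 below. Cd79a and Cd79b, the signalling pair of the B cell receptor, had changes of 0.00 and -0.03. Pax5, the transcription factor that holds B cell identity, was the member that varied least, over a range of 0.10 log2 units across 8 arrays, with 7.23 ± 0.03 in hemophagocytes and 7.21 ± 0.04 in resting macrophages (SD, n = 4 each). Ms4a1, which encodes CD20, had a change of -0.12. The Src family kinase Blk had a change of 0.01 and the sialic acid-binding inhibitory receptor Cd22 one of -0.02.

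Fcrla, an Fc receptor-like protein kept inside B cells, stood at 7.20, 6.98, 7.19 and 7.19 on hemophagocytes 2, 3, 5 and 6 and at 7.37, 7.38, 7.27 and 7.43 on resting macrophages 3, 4, 5 and 6 (probe set 10360018). Its 4 hemophagocyte arrays were all below its 4 resting arrays, by a gap smaller than the distance of hemophagocyte 3 from the other hemophagocytes. The change was -0.22 (SE 0.08, 95% interval -0.39 to -0.05, limma adjusted p = 0.747). Cr2, the complement receptor CD21 of B cells and follicular dendritic cells, stood at 5.98, 5.68, 5.98 and 6.02 on hemophagocytes 2, 3, 5 and 6 and at 5.89, 6.07, 6.13 and 6.10 on resting macrophages 3, 4, 5 and 6 (probe set 10361292). Its change of -0.13 (SE 0.09) had a limma adjusted p of 0.769, and resting macrophage 3 lay within the hemophagocyte range. Hemophagocyte 3 was the lowest of the 8 arrays in 6 of the 8 B cell genes.

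Neither plasma cell gene passed, and the groups overlapped in both. Sdc1, the heparan sulfate proteoglycan syndecan-1 used as the plasma cell marker CD138, stood at 6.77, 6.56, 6.55 and 6.27 on hemophagocytes 2, 3, 5 and 6 and at 6.60, 6.60, 6.60 and 6.84 on resting macrophages 3, 4, 5 and 6 (probe set 10394471). Hemophagocyte 6 was low and resting macrophage 6 high, with the other arrays close together (change -0.13, SE 0.11, limma adjusted p = 0.802). Mzb1, a chaperone of the endoplasmic reticulum that helps assemble immunoglobulin, stood at 7.36, 7.09, 7.01 and 6.66 on hemophagocytes 2, 3, 5 and 6 and at 7.04, 7.08, 7.09 and 7.11 on resting macrophages 3, 4, 5 and 6 (probe set 10458278). The hemophagocyte values lay on both sides of the resting ones (change -0.05, SE 0.12, limma adjusted p = 0.936). Without hemophagocyte 6 the change of Mzb1 was 0.07, and it did not pass there either.

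The NK and cytotoxic genes had the lowest median change of the 4 lineages, -0.17, and 8 of the 9 had a change below 0, with 0 past the threshold. The receptor genes had a median change of -0.15, with 1082 of 1190 below 0, and 12747 of all 19938 genes were below 0. At an unadjusted limma p under 0.05, 5.05% of all genes and 17.6% of the receptor genes were lower. Of the NK and cytotoxic genes 3 of 9 (33.3%) were lower at that level, Gzma, Klrd1 and Tbx21. Gzma, the granule protease granzyme A, stood at 6.65, 6.19, 6.71 and 6.79 on hemophagocytes 2, 3, 5 and 6 and at 6.73, 6.90, 6.85 and 7.00 on resting macrophages 3, 4, 5 and 6 (probe set 10412211). Hemophagocyte 3 was far below the rest, and hemophagocyte 6 lay above resting macrophage 3. The change was -0.29 (SE 0.12, 95% interval -0.56 to -0.01, limma adjusted p = 0.747). Klrd1, which encodes CD94, the partner chain of the NKG2 receptors, stood at 6.32, 5.88, 6.18 and 6.09 on hemophagocytes 2, 3, 5 and 6 and at 6.31, 6.47, 6.49 and 6.27 on resting macrophages 3, 4, 5 and 6 (probe set 10542214). Hemophagocyte 2 reached the resting range, the other hemophagocytes did not, and the change was -0.27 (SE 0.10, limma adjusted p = 0.747). Tbx21, which encodes the transcription factor T-bet, stood at 6.60, 6.68, 6.47 and 6.55 on hemophagocytes 2, 3, 5 and 6 and at 6.82, 6.80, 6.75 and 6.62 on resting macrophages 3, 4, 5 and 6 (probe set 10390328). Here hemophagocyte 3 was the highest of its group and resting macrophage 6 lay within the hemophagocyte range (change -0.17, SE 0.08, limma adjusted p = 0.747).

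The other NK and cytotoxic genes ran from -0.23 to 0.02 in change. Ncr1, the activating receptor NKp46, had a change of -0.23 and Klrb1c, the NK1.1 antigen of this strain, one of -0.21. Gzmb (granzyme B) had a change of -0.13 and Nkg7, a protein of the granule membrane, one of -0.14. Eomes, a T-box factor like T-bet, had a change of -0.06. Klrk1, the activating receptor NKG2D, averaged 5.07 ± 0.08 in hemophagocytes and 5.05 ± 0.04 in resting macrophages (SD, n = 4 each), with a change of 0.02. Klrd1, Klrk1 and Klrb1c belong to a family of related lectin-like receptor genes, as the granzymes belong to a protease family. Whether their probes also take up relatives was not tested.

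**Figure D2:**
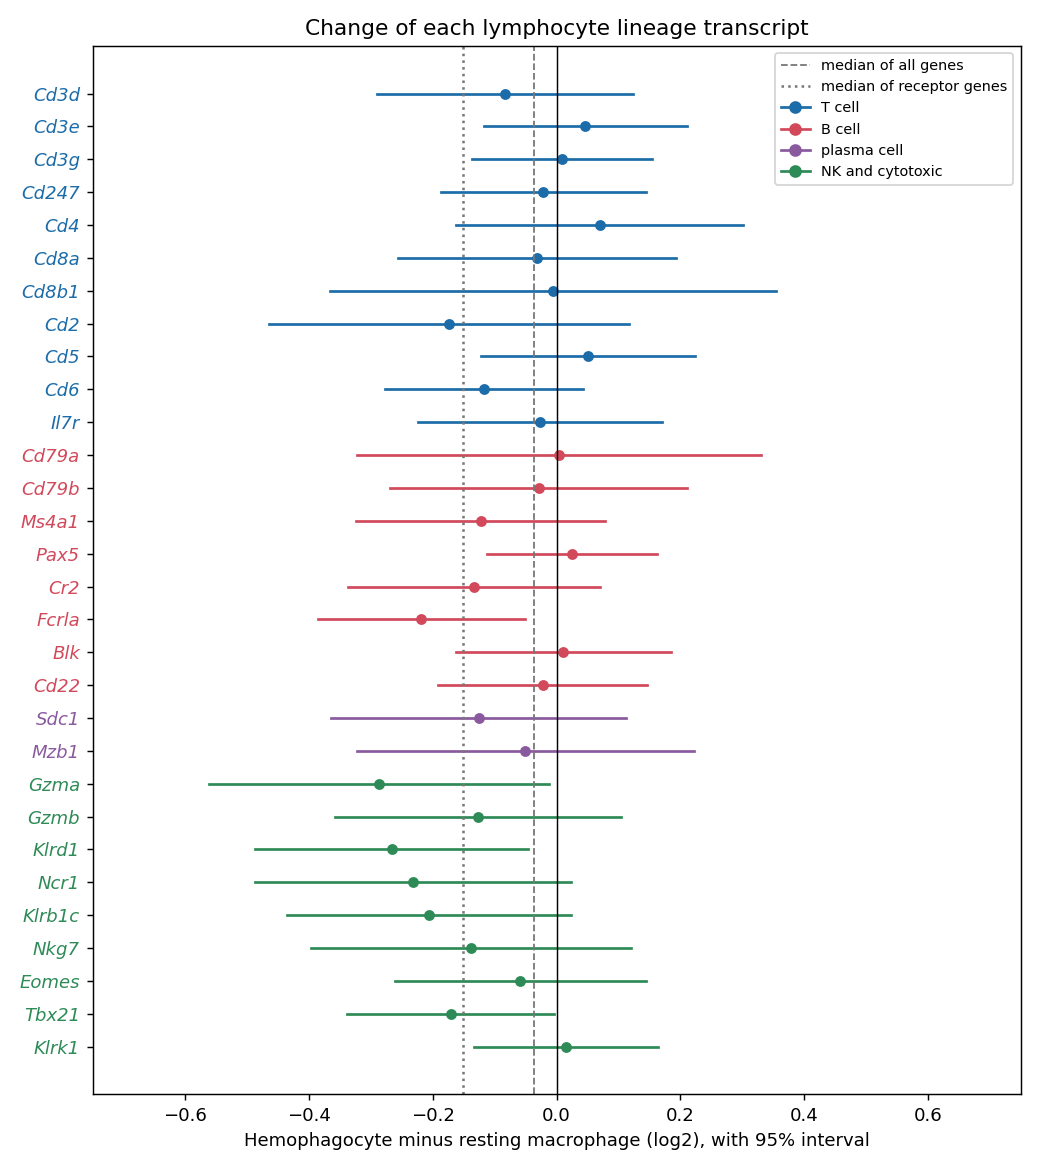
Change of each lymphocyte lineage transcript, hemophagocyte minus resting macrophage on the log2 scale (x axis), as points with 95% limma intervals coloured by lineage, with the median change of all genes (-0.04, dashed) and of the receptor genes (-0.15, dotted). The interval excludes 0 in 4 members, all on the lower side, and none of the 30 passed after adjustment.

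The mean of the NK and cytotoxic genes and the mean of the array background were set side by side. The mean of the 9 NK and cytotoxic genes was 6.25, 6.02, 6.27 and 6.25 on hemophagocytes 2, 3, 5 and 6, and 6.29, 6.36, 6.40 and 6.38 on resting macrophages 3, 4, 5 and 6. The mean of the receptor genes was 5.95, 5.75, 6.07 and 6.05 on the same hemophagocyte arrays, and 5.99, 6.14, 6.16 and 6.13 on the same resting arrays. Hemophagocyte 3 was the lowest array in both, and resting macrophage 5 the highest. Taken over the receptor mean of the same array, the NK genes stood 0.30, 0.27, 0.20 and 0.20 above it on hemophagocytes 2, 3, 5 and 6, and 0.29, 0.23, 0.24 and 0.25 above it on resting macrophages 3, 4, 5 and 6, and these groups overlap. With the receptor mean as a covariate in limma the median NK change was -0.035, against -0.17 without it. The members did not all follow this. Gzma had a change of -0.04 with the covariate and Klrd1 one of -0.15, and Tbx21 had one of -0.25, further from 0 than its -0.17 without it, all 3 at a limma adjusted p of 0.972 or above. Tbx21 was the 1 member lower at an unadjusted p under 0.05 in that fit, where 2.38% of all genes were lower. The median NK change ranged from -0.19 to -0.13 when single arrays were left out. The T cell mean moved less, at 6.52, 6.44, 6.47 and 6.49 on hemophagocytes 2, 3, 5 and 6, and at 6.51, 6.49, 6.53 and 6.50 on resting macrophages 3, 4, 5 and 6. Over the receptor mean, the T cell genes stood at 0.57, 0.69, 0.40 and 0.44 on these hemophagocytes. On these resting arrays they stood at 0.52, 0.36, 0.37 and 0.36. The B cell genes stood at 0.62, 0.58, 0.48 and 0.50, and at 0.51, 0.45, 0.42 and 0.44. The plasma cell pair ran from 0.42 to 1.11 and from 0.69 to 0.85. The groups overlap in all of these, with most hemophagocyte values of the T and B cell genes on the upper side. Hemophagocyte 3 was the lowest of the 8 arrays in 16 of the 30 members, in 33.1% of all genes and in 68.2% of the receptor genes. With the covariate the median change went from -0.02 to 0.02 for T cell genes and from -0.03 to 0.05 for B cell genes. For the plasma cell pair it went from -0.09 to -0.15, further from 0. The receptor mean itself differed between the groups, at 5.95 in hemophagocytes and 6.11 in resting macrophages. The covariate can therefore also take up a difference between the groups, and the distance over the receptor mean carries that difference too. The part of the array background in the member values was not tested.

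**Figure D3:**
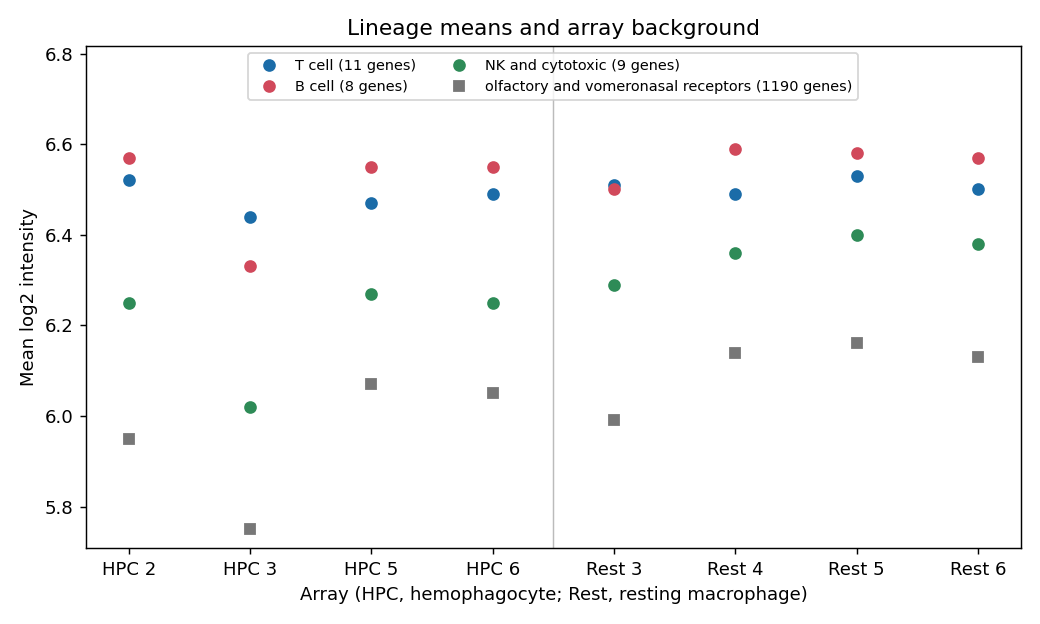
Mean log2 intensity (y axis) of the T cell, B cell, and NK and cytotoxic genes and of the 1190 receptor genes on each array, hemophagocyte arrays on the left and resting macrophage arrays on the right. Hemophagocyte 3 is the lowest array for all 4 sets, at 6.44, 6.33, 6.02 and 5.75.

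All measured members stayed within the range of the array background, as most genes did. On each of the 8 arrays, 0 of 30 members exceeded the 95th percentile of the receptor genes of that array. On at least 1 array 7% of all genes exceeded it, and so did 91 of the 1190 receptor genes. On single arrays 2.36% to 5.86% of all genes did, so this level does not set genes in general apart from background. The 90th percentile was exceeded on 1 or 2 arrays by Cd5, Pax5, Fcrla and Mzb1. In 18 members the intensity was above the median of the receptor genes on all 8 arrays, and in 5 (Cd3d, Cd79a, Cr2, Klrb1c and Klrk1) it was below that median on all 8. Probe sets differ in how brightly they report a given amount of RNA, so a place within this range shows neither that a transcript was there nor that it was absent. Members that are neighbours in the genome, by the RefSeq annotation of GRCm38.p6, did not share a direction throughout. Klrd1 and Klrk1 had changes of -0.27 and 0.02, Cd5 and Cd6 of 0.05 and -0.12, Cd8a and Cd8b1 of -0.03 and -0.01, and Cd3d and Cd3e of -0.08 and 0.05. The differences within these pairs were not tested.

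No single array carried a high lymphocyte value. In 0 of 30 members did any array lie over 1 log2 unit above that gene's 8-array median, and 1.49% of all genes had such an array. The highest such value was 0.37, for Gzmb on resting macrophage 6. Macrophage markers did reach such values on hemophagocytes 3 and 5, and 1 of them, Ctss, also did on resting macrophage 5, at 8.74. Cd68, a glycoprotein of the macrophage lysosome, reached 9.66 on hemophagocyte 3 and 10.52 on hemophagocyte 5 and did not exceed 7.50 on the other 6 arrays, and 7 of 20 macrophage markers had at least 1 array past that distance. Among markers of other blood cells, the neutrophil genes S100a8 and S100a9 were at 8.02 and 9.12 on hemophagocyte 3, and the other hemophagocytes ran from 4.60 to 6.41 for S100a8 and from 6.01 to 7.33 for S100a9. On resting arrays S100a8 ran from 4.86 to 5.02 and S100a9 from 6.12 to 6.34. The platelet chemokine Pf4, picked after its values were seen, was at 6.10, 10.35, 9.11 and 5.49 on hemophagocytes 2, 3, 5 and 6, and from 6.61 to 7.41 on resting arrays, so that 2 hemophagocyte arrays lay above and 2 below all resting arrays. An array past that distance was found in 2 of 10 neutrophil markers and 1 of 5 measured platelet markers, and in 0 of 8 measured erythroid and 0 of 8 dendritic cell markers. The dendritic cell list had a median change of -0.14, with 7 of 8 below 0, and the erythroid list one of -0.03, with 6 of 8 below 0. Without overlap 2.9% of all genes and 6.3% of the receptor genes were lower. In the dendritic cell list and in the erythroid list 1 gene of 8 each (12.5%) was lower without overlap. These were Flt3, a growth factor receptor of dendritic cells and their progenitors, at -0.16, and Epb42, the red cell membrane protein 4.2, at -0.24 (limma adjusted p = 0.747 each). Siglech of the dendritic cell list had a change of -0.20 and Rhag of the erythroid list one of 0.13, and the platelet genes Ppbp and Treml1 had changes of -0.20 and -0.11. None of these genes passed the threshold. The neutrophil list had a median change of -0.03, with 6 of 10 below 0, and the platelet list one of 0.00, with 2 of 5 below 0. High values of S100a8, S100a9 and Pf4 were thus not shared by most of their lists. Whether the arrays high for these genes would also have read out a lymphocyte transcript, had it been there, was not tested.

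**Figure D4:**
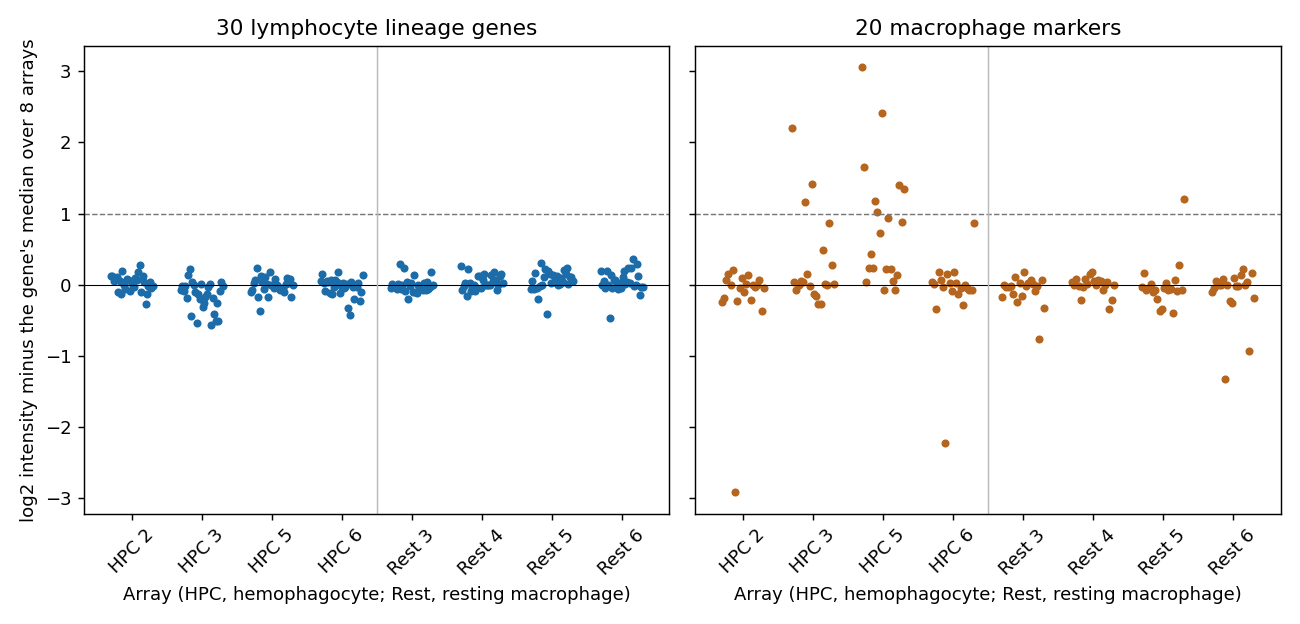
Distance of each value from that gene's 8-array median (y axis, log2 units) for the 30 lymphocyte lineage genes (left panel) and 20 macrophage markers (right panel), with each point a gene and the dashed line at 1 log2 unit. The lymphocyte genes reach no higher than 0.37 on any array, and macrophage markers reach 3.06 on hemophagocyte 5.

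The wider lymphocyte lists held no gene past the threshold either. Of 73 other genes listed for T, B, plasma and NK cells, 69 were measured, with a median change of -0.06, 14 above 0 and 55 below. Not all genes of these lists are confined to lymphocytes. With limma 0 were called higher and 0 lower, and at an unadjusted p under 0.05 there were 0 higher and 6 lower (8.7%). At that level 1.53% of all genes were higher and 5.05% lower, and 17.6% of the receptor genes were lower. Without overlap, 0.802% of all genes were higher and 2.9% lower, and 6.3% of the receptor genes were lower. Among the 69, groups did not overlap in 0 in the higher direction and in 3 in the lower one (4.35%). These were Cd40lg, the ligand by which helper T cells stimulate B cells, with a change of -0.30, Cd72, an inhibitory B cell receptor, with -0.26, and the granzyme Gzmc with -0.23, all at a limma adjusted p of 0.747. The T cell regulator Bcl11b (-0.24), the costimulatory receptor Cd28 (-0.31) and the integrin Itga2 (-0.24) completed the 6 at an unadjusted p under 0.05. Ly6d of the B cell list had a change of -0.14 and Xcl1 of the NK list one of -0.16. In the plasma cell list, Xbp1, a transcription factor of secretory cells, had a change of 0.13 and Irf4 one of -0.22. Tnfrsf17, which encodes the survival receptor BCMA, had a change of -0.16. In 0 of the 69 was an array over 1 log2 unit above that gene's median.

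On 4 or more arrays, 3.05% of all genes exceeded the 95th percentile of the receptor genes. Of the receptor genes themselves 62 of 1190 did, and of the 30 members 0 did. Of the 69 measured genes of the wider lymphocyte lists 3 did. They were Ccr7, a chemokine receptor that guides T cells and dendritic cells, Lat, an adaptor of T cell receptor signalling, and Vpreb3, a B cell gene. Ccr7 stood at 8.61, 8.44, 8.30 and 8.53 on hemophagocytes 2, 3, 5 and 6 and at 8.63, 8.54, 8.40 and 8.49 on resting macrophages 3, 4, 5 and 6. Vpreb3 stood at 8.11, 7.82, 8.32 and 8.29 on hemophagocytes 2, 3, 5 and 6 and at 8.17, 8.34, 8.69 and 8.47 on resting macrophages 3, 4, 5 and 6. In both genes the groups overlapped, and Vpreb3 was lowest on hemophagocyte 3, as the receptor genes were.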

How the data were processed

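The authors deposited 1 log2 value per probe set and array for 8 Affymetrix mouse Gene ST 1.0 arrays, as judged from the range of the values. Per the labels' protocols, RNA of the captured cells went through WT-Ovation One-Direct amplification, which can lose transcripts when so few cells are used. The submitters' processing notes name Affymetrix Expression Console 1.1. How background, probe summary and normalization were handled is not stated in those sources, and no further scaling was applied.

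Of 35556 probe sets the platform annotation named 1 gene for 21789, several for 1621, and did not list 12146. Only the first kind was used, with the brightest probe set per gene (19938 genes) and no filter on dim genes. Each member had a single such probe set. Titles gave the groups and replicate numbers. No label ties an array to particular mice, so p-values measure only the spread between these samples, some of which may be technical. Arrays have no read depth, and 4 per group limit the precision.

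The comparison used lmFit and eBayes of limma 3.58.1 under R 4.3.3, without a block. P-values were adjusted by Benjamini-Hochberg across the 19938 genes and called at 0.05. The script was tested on simulated data with added shifts larger than any change of a member. That run does not show how small a change these arrays could detect. Gene lists are described by counts and medians, without set tests. Members and lists were chosen with earlier results of these data known. Values on every array are given for members at an unadjusted p under 0.05 or without overlap and for the 2 of smallest p per lineage, and of the other lists the genes of smallest p are named, with any further gene picked by its values. Equal replicate numbers (3, 5 and 6) were not taken as pairs: the deviations of same-numbered arrays from their group means correlated at 0.174, 0.0657 and 0.118 across genes, and the labels give no shared mouse or day. The closing section gives the alternatives tried.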

Additional observations from a re-analysis of the deposited data

Results flagged for a closer look

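Single arrays that stood apart from the other 3 of their group were looked for with Dixon's test, which marks about 1 in 20 groups of 4 by chance. Of 60 member groups, 6 were marked. Hemophagocyte 3 was low for Cd79a (5.30, the others 5.85 to 5.93), Cr2 (5.68, the others 5.98 to 6.02), Fcrla (6.98, the others 7.19 to 7.20) and Nkg7 (6.26, the others 6.75 to 6.79). Hemophagocyte 6 was high for Klrk1 (5.18, the others 5.02 to 5.04), and resting macrophage 6 was high for Sdc1 (6.84, the others at 6.60).

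Of 72 groups of list means and other named genes, 9 were marked. Hemophagocyte 3 was low in the mean of the B cell genes (6.33, the others 6.55 to 6.57) and of the NK and cytotoxic genes (6.02, the others 6.25 to 6.27). Resting macrophage 3 was low in the mean of the B cell genes (6.50, the others 6.57 to 6.59) and of the receptor genes (5.99, the others 6.13 to 6.16). Resting macrophage 6 was high in the mean of the plasma cell pair (6.98, the others 6.82 to 6.84). Among other genes, Siglech, a marker of plasmacytoid dendritic cells, was low on hemophagocyte 3 (7.05, the others 7.23 to 7.25), Adgre1 was high on hemophagocyte 5 (7.38, the others 5.53 to 5.76), Lyz2 was low on resting macrophage 6 (7.45, the others 8.71 to 8.89), and Xcl1, a chemokine of NK and T cells, was low on resting macrophage 3 (6.41, the others at 6.53).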

How the results depend on the processing

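In all 19 alternatives 0 members passed the threshold in either direction, and the smallest adjusted p of a member was 0.58. No member was higher at an unadjusted p under 0.05 in any of them. The count of lower members at that level was 4 with all arrays and settings as reported, where 5.05% of all genes were lower. It was 2 after cyclic loess normalization (2.75% of all genes) and 1 with the receptor mean as a covariate (2.38%). It was 0 without hemophagocytes 3 and 5 (2.73%), and 1 to 6 when single arrays were left out (2.77% to 6.24%). The replicate number as a block gave 4, where 5.68% of all genes were lower, so the block moved no count of calls among members. It did move changes: 4 members were above 0, against 8 without the block, and 24 of 30 kept their sign. The median change of the plasma cell pair went from -0.09 to -0.19. Only replicate numbers 3, 5 and 6 occur in both groups, so the change in that fit rests on those arrays. The median NK change was -0.035 with the receptor covariate. With single arrays left out the median changes ran from -0.04 to 0.01 for T cell genes, -0.08 to 0.01 for B cell genes, -0.18 to 0.02 for the plasma cell pair and -0.19 to -0.13 for NK and cytotoxic genes. Against the 90th percentile of the receptor genes 4 members exceeded it on at least 1 array, against the median 25 did, and against the 99th 0 did. Of the members given array by array, Cd2 (0.08) and Cr2 (0.03) had a change of the opposite sign with the covariate. The cause of these shifts was not tested. A filter on genes dimmer than the median gene kept 21 members in the fit. Signal near background limits what these arrays can show.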

Other observations

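Immunoglobulin heavy chains, the most abundant transcripts of antibody-producing cells, are no members, and those given here were picked after their values were seen. Ighm, the heavy chain of IgM, stood at 8.08, 7.82, 7.97 and 8.03 on hemophagocytes 2, 3, 5 and 6 and at 7.90, 8.06, 8.21 and 8.14 on resting macrophages 3, 4, 5 and 6. Igha, the heavy chain of IgA, stood at 7.73, 7.54, 7.96 and 7.95 on hemophagocytes 2, 3, 5 and 6 and at 7.85, 8.00, 8.06 and 7.85 on resting macrophages 3, 4, 5 and 6. Both were above the 95th percentile of the receptor genes on all 8 arrays. On 4 or more arrays 3.05% of all genes exceeded that percentile, and so did 62 of the 1190 receptor genes. The groups overlapped in both heavy chains, and the changes of -0.10 and -0.15 had limma adjusted p of 0.802 and 0.769. For each of these genes the values are those of the brightest probe set naming it alone, so any other was dimmer by that choice. Whether the dimmer ones exceeded that percentile is not given here.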
